A study of Rattus norvegicus with 3 samples.

Results

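The genes of the neonatal rat retina that could be counted well were compared between an eye injection of streptozotocin (STZ) and an injection of its citrate buffer. A gene was taken as well counted when its mean read count over the 3 libraries of the series was at least 50 and its count was a whole number in all 3. There were 10976 such genes of 18425 in the deposited table. Of the rest, 1838 reached a mean of 50 but had a value that was not whole in at least 1 library, and 5611 had a lower mean. Prss36 was at the edge with a mean of 50 reads, and Cacng8 lay just outside with a mean of 49.7.

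The retinas came from wild-type Sprague-Dawley rats that received 1 µl into the vitreous at postnatal day 1 (P1), and they were taken at P4. The buffer library came from retinas given citrate buffer of pH 4.5, the STZ library from retinas given 10 µg of STZ made up in citrate buffer, and the saline library from retinas given saline. Each condition had 1 library of whole retina, and the number of animals behind a library was not given in the sources used here. In the eye injections that the study describes, buffer went into the other eye of STZ-treated animals, and whether the buffer and STZ libraries share animals was not given. With no replicate, no p-value was computed, and each difference compares libraries rather than conditions. Where 3 read counts of a gene follow each other, they are those of the buffer, saline and STZ libraries in this order.

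The counted reads summed to 21992702 with buffer, 21977843 with saline and 22031249 with STZ, and the whole-count genes held 84.3% of the reads in both the buffer and the STZ library. Of 25 genes that mark retinal cells, 22 were among the whole-count genes, and their median log2 fold in STZ against buffer was 0.09. Pax6, a transcription factor of retinal progenitors and amacrine cells, had 12271 reads with buffer, 12506 with saline and 12605 with STZ. Recoverin (Rcvrn) was the only one of the 22 markers that passed as higher, and Lhx2 the only one that passed as lower. No erythroid, neutrophil or lymphocyte marker was among the whole-count genes; the globins Hba1, Hbb and Hbb-b1 reached the mean of 50 but had fractional counts. The pigment epithelium markers Pmel, Dct and Tyrp1 were highest in the saline library, and Pmel had 252 reads with buffer, 940 with saline and 240 with STZ. The 5 whole-count markers of that list summed to 7935, 8470 and 6451 reads in the same order, and none passed in STZ against buffer. Most of this sum was Rlbp1, which Müller glia also make, and the other 4 summed to 939, 1899 and 950 reads. None of the 4 myelin, 1 skeletal muscle and 2 surface epithelium markers among the whole-count genes passed either. The erythroid markers, including fractional values, summed to 1009, 1401 and 780 reads. The part of these other tissues in the results was not tested.

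STZ is a glucosamine joined to a nitrosourea and alkylates DNA. At birth the rat retina still holds dividing progenitors that make rods, bipolar cells and Müller glia, while ganglion cells, cones, horizontal cells and most amacrine cells have already formed. Microglia, the resident phagocytes of the tissue, take up dying cells, and the vessels of the retina grow outward from the optic nerve during the first postnatal week. RNA from whole retina mixes all of these cells, so fewer cells of a type and less RNA per cell cannot be told apart.

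The fold of a gene was (FPKM + 1) with STZ divided by (FPKM + 1) with buffer, where FPKM is the fragment count divided by transcript length and by sequencing depth. A gene passed as higher above 1.54 and as lower below 0.65. Of the 10976 genes, 199 passed as higher, which was 1.81%, and 90 passed as lower, which was 0.82%. In saline against buffer, 63 of the same genes passed as higher, or 0.574%, and 11 passed as lower, or 0.1%. Both comparisons use the same buffer library. Of the 289 genes that passed, 68.9% were on the higher side. With CPM from the counts instead of FPKM, 249 genes passed as higher and 121 as lower, a higher share of 67.3%. TMM scaling of these CPM gave 217 higher and 159 lower (57.7%), and DESeq2 size factors gave 219 higher and 156 lower (58.4%). The 2 genes nearest the upper threshold were Ankrd6 at a fold of 1.542 and Gdap1 at 1.537, and those nearest the lower one were Ccnjl at 0.6485 and Ltbp4 at 0.6502.

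Most of the well-counted transcriptome lay close to no difference. The median log2 fold was 0.026, and the central part of the genes, without the lowest and highest 5%, lay between -0.33 and 0.40 on the log2 scale. The added 1 FPKM pulls weakly expressed genes toward a fold of 1, so a count ratio, the share of the STZ total divided by the share of the buffer total, is given beside the fold, with an exact Clopper-Pearson 95% interval that covers counting error only. By this ratio and the same thresholds, 319 genes were higher, or 2.91%, and 180 were lower, or 1.64%. All 199 higher and 90 lower genes by fold had an interval that left out 1. Such an interval says little alone at this depth, since it left out 1 for 49% of all whole-count genes in STZ against buffer and for 29.5% in saline against buffer.

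**Figure D1:**
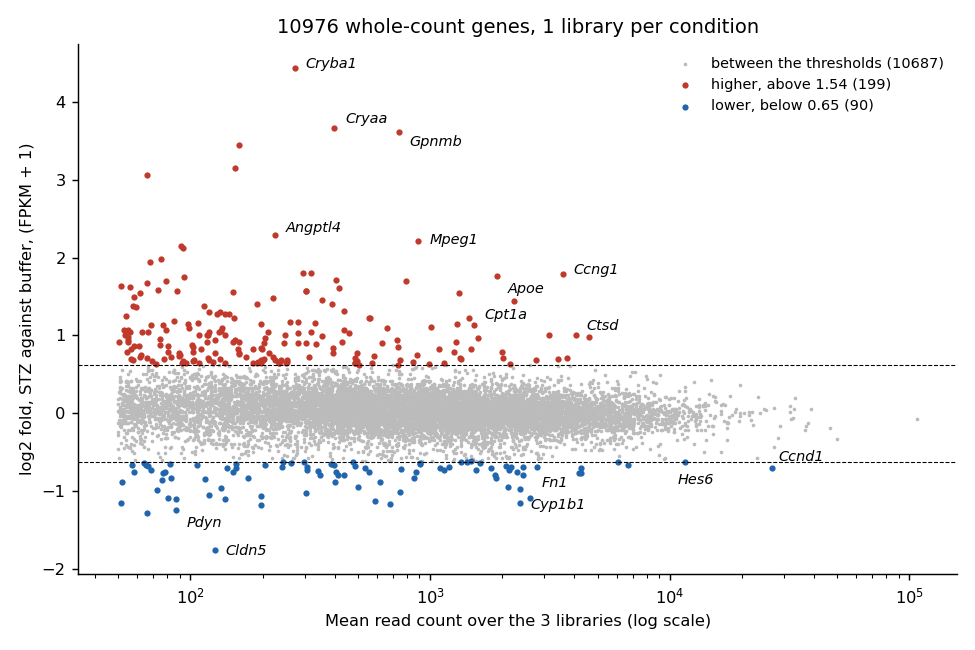
Each point is 1 of the 10976 whole-count genes, with its mean read count over the 3 libraries on a log axis and its log2 fold in STZ against buffer on the vertical axis. The dashed lines mark the thresholds 1.54 and 0.65; the 199 red genes lie above and the 90 blue genes below, and the red genes are densest at low counts.

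The higher genes were counted less well than the lower ones. Their median mean count was 189 reads, against 408 for the lower genes and 859 for all whole-count genes. With the genes cut into 5 equal groups by count, in the group with the lowest counts 122 passed as higher (5.56%) and 34 as lower (1.55%), while in the group with the highest counts 7 passed as higher and 11 as lower. The higher genes were also shorter, with a median transcript length of 1.84 kb against 2.48 kb for all, and the lower genes had a median of 2.51 kb. Of the higher genes, 38 had a mean under 50 reads in the buffer and saline libraries, so they entered the set only through their reads with STZ. Of the lower genes, 22 had under 50 reads with STZ. Without these genes, 161 passed as higher and 68 as lower. Of the 100 genes with the most reads, 0 passed as higher and 1 passed as lower, cyclin D1 (Ccnd1). Among the 1838 genes that were left out for a fractional count, with a median mean count of 627, 5.66% passed in either direction, against 2.63% of the whole-count genes.

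**Figure D2:**
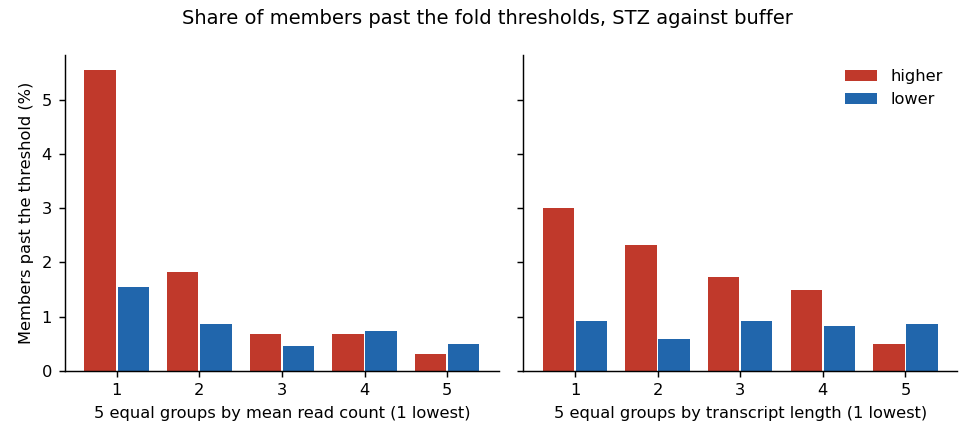
Bars give the percent of whole-count genes that passed as higher (red) or lower (blue) in 5 equal groups by mean read count (left) and by transcript length (right), with group 1 the lowest. The share of higher genes goes from 5.56% to 0.319% from the lowest to the highest group by count, while the share of lower genes runs from 1.55% to 0.501%.

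Gpnmb, a membrane glycoprotein of phagocytes and pigment cells, had 106 reads with buffer, 285 with saline and 1825 with STZ. Its fold of 12.3 (ratio 17.2, interval 14.1 to 21.1) was the third largest, behind 2 lens crystallins. The saline library lay above buffer but far below STZ. Mpeg1, a pore-forming protein of macrophages, had 336 reads with buffer, 453 with saline and 1891 with STZ, which gave a fold of 4.66.

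Lens crystallins took 5 of the 6 largest folds. Cryba1, a structural protein of the lens, had 22 reads with buffer, 62 with saline and 731 with STZ. Of the 7 crystallins among the whole-count genes, 6 passed as higher, and the median log2 fold of the 7 was 3.16. In saline against buffer 6 also passed as higher, with a median of 1.12, so buffer lay below both other libraries for most of this list. Of the 6 higher with STZ, 4 had a mean under 50 reads over buffer and saline and were in the set only through STZ. Cryab, a small heat shock protein that is also made outside the lens, was highest in the saline library, with 9, 81 and 64 reads. Of the other lens fiber markers, Bfsp1 alone was a whole-count gene, and its fold was 1.44. Its 50, 105 and 90 reads were highest in saline too.

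**Figure D3:**
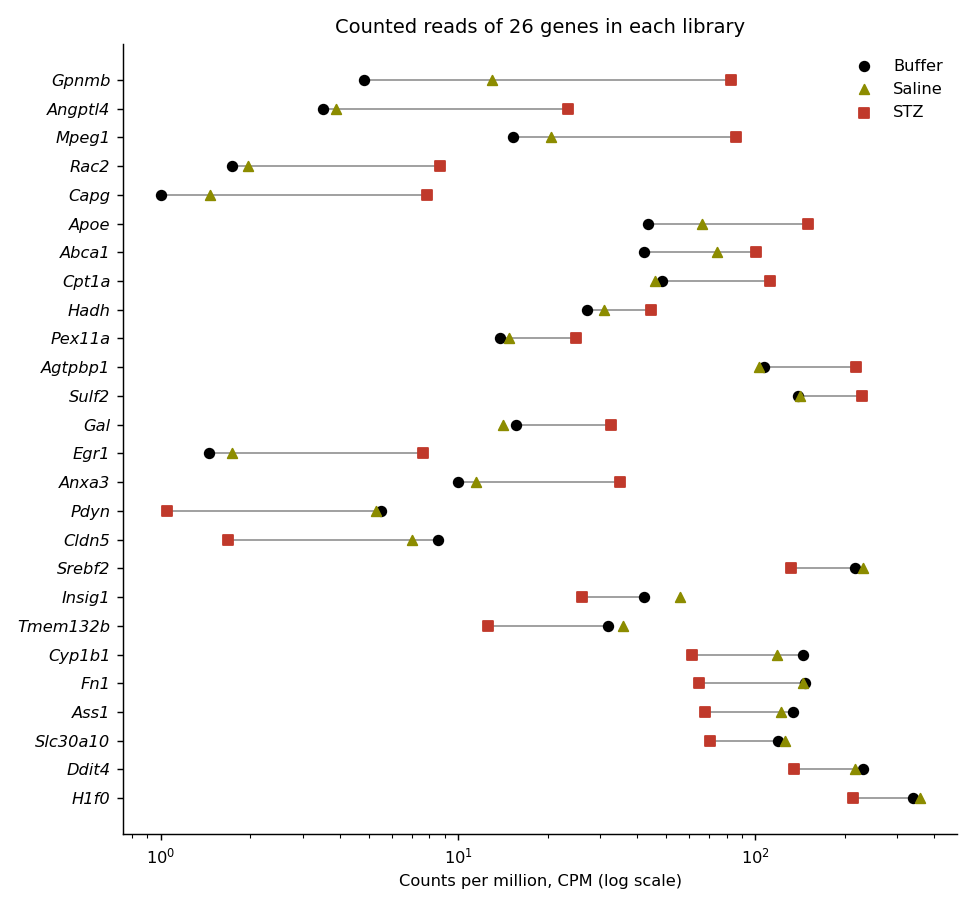
Read counts scaled to each library's total (CPM, log axis) of 26 genes in the buffer (circles), saline (triangles) and STZ (squares) libraries, with a line from buffer to STZ. Saline lies near buffer for Angptl4, Cpt1a and Agtpbp1, and between buffer and STZ for Abca1.

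Some genes of fatty acid use passed as higher, and some genes of cholesterol supply passed as lower. Angptl4, a secreted inhibitor of lipoprotein lipase, had 77 reads with buffer, 85 with saline and 515 with STZ. Its fold of 4.88 (ratio 6.68, interval 5.25 to 8.6) was the largest outside the crystallins and Gpnmb. Cpt1a, the enzyme that commits long-chain fatty acids to mitochondrial import, had 1064, 1010 and 2472 reads (fold 2.21, ratio 2.32, interval 2.16 to 2.49). In both genes the controls differed by little and STZ stood apart. Acsl5, which activates fatty acids with coenzyme A, passed with a fold of 1.77. Hadh, a dehydrogenase of mitochondrial beta-oxidation, passed with a fold of 1.61, and Pex11a, which acts in peroxisome division, with 1.7.

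The 5 genes Angptl4, Cpt1a, Acsl5, Hadh and Pex11a are known targets of the PPAR nuclear receptors. In a list of 20 PPAR targets among the whole-count genes, 5 passed as higher and 0 as lower, with a median log2 fold of 0.31 against 0.026 for all genes. The other 15 of the 20 lay between the thresholds, and Hadha, of the same oxidation pathway, had 4809 reads with buffer and 4687 with STZ. The wider family of fatty acid synthesis and oxidation had 41 members, of which 3 passed as higher and 0 as lower, and its median log2 fold was 0.12. The list of PPAR targets was written after the values were seen, so its counts describe these libraries only. The same holds for the lists of SREBP targets, LXR targets, phagocyte surface, interferon, immediate early, rod and cone, endothelial, mural and astrocyte, progenitor, Y-linked and crystallin genes. The counts of all these lists stand beside shares of 1.81% higher and 0.82% lower over all whole-count genes.

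Srebf2, the transcription factor that drives cholesterol synthesis genes, had 4753 reads with buffer, 5062 with saline and 2896 with STZ (fold 0.618, ratio 0.608, interval 0.581 to 0.637). Insig1, a sterol-responsive regulator of that factor's processing, had 927, 1226 and 573 reads, which is a fold of 0.636. For both genes the saline library lay above the buffer library and STZ below both. Of 23 SREBP targets and regulators, 3 passed as lower, these genes among them, and 0 as higher, with a median log2 fold of -0.23. Enzymes of the pathway lay between the thresholds, with folds of 0.694 for Fdft1 and 1.01 for Mvk.

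Apoe, the main lipid carrier of neural tissue, had 961 reads with buffer, 1449 with saline and 3305 with STZ (fold 3.38, ratio 3.43, interval 3.19 to 3.69). Abca1, which exports cholesterol to apolipoproteins, had 926, 1636 and 2211 reads, a fold of 1.96. For Abca1 the saline library was 1.58 times buffer by fold, so the controls also differed. These were the 2 that passed of the 7 genes on the LXR list, which also holds the receptor Nr1h2 (fold 0.895). Of 27 apolipoproteins and lipid carriers, Apoe alone passed as higher, 0 passed as lower, and the median log2 fold was 0.26.

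Genes of leukocyte signalling and of the leukocyte cytoskeleton were the family with the largest share past the threshold. Of 31 such genes, 21 passed as higher and 0 as lower, with a median log2 fold of 0.88, and their reads summed to 2583 with buffer, 2989 with saline and 6340 with STZ. Of the 21, 7 were in the set only through their STZ reads, and of the 23 genes with a mean of at least 50 reads over buffer and saline, 14 passed as higher. Rac2, a small GTPase of blood cells, had 38, 43 and 192 reads, with a fold of 4.43. Tyrobp and Fcer1g, adapters that pass the signal of immune receptors, had folds of 4.34 and 3.37, and the phosphatase Ptpn6 had 2.2. Tyrobp had 36, 63 and 180 reads and also passed as higher in saline against buffer, at a fold of 1.65. Rac2, Tyrobp and Ptpn6 were in the set only through their STZ reads. The integrin chains Itgal and Itgb2, which pair on leukocytes, had 41 and 46 reads with buffer and 195 and 136 with STZ. In all of these the 2 controls lay closer to each other than to STZ.

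Most whole-count microglia and macrophage markers moved with this family. Of 7 whole-count markers, 6 passed as higher, and the summed reads of the 7 were 982 with buffer, 1129 with saline and 2376 with STZ. Cd68, with 20, 41 and 107 reads, was in the set only through its STZ reads. Of the 6 markers that reached a mean of 50 over buffer and saline, 5 passed. The list also held Mrc1, Cd163 and Lyve1, which had a mean under 50 reads. Mrc1 had 4, 43 and 41 reads, Cd163 had 0, 14 and 1, and Lyve1 had 6, 23 and 14. All of these were highest in saline, and none was past a threshold with STZ. P2ry12, a receptor of resting microglia, had 81, 78 and 129 reads, which is a fold of 1.27. The neutrophil markers S100a8 and S100a9 had 0 reads with buffer, 2 and 5 with saline and 3 and 4 with STZ, which is at or near the floor of 3 counts, and Ngp had 18, 9 and 32. Of 19 phagocyte surface genes, 16 passed as higher and 0 as lower, with a median log2 fold of 1.10. Of these 16, 7 were in the set only through their STZ reads, and of the 12 genes that reached a mean of 50 over buffer and saline, 9 passed. How much of the leukocyte difference came with the number of microglia was not tested.

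Actin regulators held both leukocyte and photoreceptor proteins. Of 51, 5 passed as higher and 0 as lower, or 9.8% against 2.63% of all whole-count genes, while the median log2 fold was 0.07. Capg, which caps actin filaments, had 22 reads with buffer, 32 with saline and 173 with STZ (ratio 7.85, interval 5.02 to 12.9). Capg was in the set only through its STZ reads. Lcp1, the actin-bundling plastin of blood cells, had 156, 164 and 592 reads. Coro1a, a coronin of leukocytes, had 307, 328 and 678 reads, and Arpc1b, a subunit of the Arp2/3 complex, had a fold of 1.99. Fscn2, the fascin of photoreceptors, had 64, 76 and 182 reads, a fold of 2.24. The small GTPases Rab7b and Rab32, which act in late endosomes and lysosome-related organelles, had folds of 2.6 and 2.01. They were the 2 of 82 Rab and Arf genes that passed, or 2.44% against 2.63% of all whole-count genes. Rab7b had 16, 29 and 128 reads, and both genes were in the set only through their STZ reads. Rab32 had 22, 53 and 85 reads, so its saline library lay between buffer and STZ.

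Promoters were read for the letters of PU.1, the transcription factor of myeloid cells, because the higher genes held so many leukocyte genes. The windows ran from 250 bases before to 50 bases after the gene start and were taken from RefSeq on the build GRCr8. A window was found for 8984 whole-count genes. GAGGAAG, on either strand, was in 36 of 148 windows of higher genes (24.3%), in 10 of 59 of lower genes (16.9%), in 12.9% of all whole-count windows and in 12.4% of the 27457 windows in the table. Among leukocyte genes it was in 8 of 20 windows (40%). The TATA box letters TATAAA, on either strand, were in 14.2% of the windows of higher genes, 10.2% of lower genes, 5.93% of whole-count genes and 14.3% of all windows. The interferon element GAAANNGAA was in 11.5% of higher and 3.39% of lower windows, against 6.58% of whole-count and 9.5% of all windows. The AP-1 letters TGANTCA were in 8.11% of higher, 5.08% of lower, 4.35% of whole-count and 7.33% of all windows. For CCAAT the same shares were 30.4%, 39%, 37.7% and 37.7%, and for the cell cycle element TTTGAA they were 8.11%, 13.6%, 11.3% and 18.1%. An E2F site was in 3.38% of higher and 6.78% of lower windows, against 4.23% of whole-count and 2.25% of all windows. A metal response element was in 26.4% of higher and 40.7% of lower windows, against 37.8% and 25%. A pair of p53 sites was in 0 windows of higher or lower genes, against 0.0557% of whole-count and 0.0619% of all windows. With so rare a match, the 0 says nothing about the genes that passed. These matches describe letters in a window and say nothing of binding.

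The windows of 4 leukocyte genes that passed and hold the PU.1 letters are given here, 5′ to 3′ on the strand of the gene, to show where the letters lie. Capitals mark GAGGAAG or its reverse complement, and the capitals overlapped 0 matches of the other 8 motifs searched. Laptm5, a lysosomal membrane protein, had 88, 109 and 259 reads and its window is chr5:148371630-148371929 on the plus strand. Inpp5d, a lipid phosphatase of immune receptor signalling, had 66, 82 and 260 reads and its window is chr9:95735283-95735582 on the plus strand. Cd53, a leukocyte tetraspanin, had 48, 50 and 125 reads and its window is chr2:197087847-197088146 on the minus strand. Cyth4, an exchange factor for Arf GTPases, had 63, 77 and 163 reads and its window is chr7:112032532-112032831 on the plus strand.
Laptm5: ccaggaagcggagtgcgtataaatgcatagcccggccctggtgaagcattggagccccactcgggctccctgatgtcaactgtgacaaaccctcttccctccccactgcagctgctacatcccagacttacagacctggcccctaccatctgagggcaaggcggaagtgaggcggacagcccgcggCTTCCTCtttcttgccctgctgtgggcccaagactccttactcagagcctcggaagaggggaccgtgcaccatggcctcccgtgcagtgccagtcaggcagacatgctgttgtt
Inpp5d: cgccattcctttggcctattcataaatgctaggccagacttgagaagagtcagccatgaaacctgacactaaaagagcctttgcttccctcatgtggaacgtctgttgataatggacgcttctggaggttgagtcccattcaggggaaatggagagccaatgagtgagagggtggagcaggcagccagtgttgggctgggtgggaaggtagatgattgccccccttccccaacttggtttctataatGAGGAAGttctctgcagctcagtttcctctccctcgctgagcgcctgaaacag
Cd53: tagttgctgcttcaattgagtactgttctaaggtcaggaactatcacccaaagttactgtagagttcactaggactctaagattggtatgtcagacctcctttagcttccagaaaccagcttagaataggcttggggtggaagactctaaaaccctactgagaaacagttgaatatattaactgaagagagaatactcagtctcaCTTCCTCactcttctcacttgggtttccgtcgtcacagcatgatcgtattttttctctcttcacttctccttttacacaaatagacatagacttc
Cyth4: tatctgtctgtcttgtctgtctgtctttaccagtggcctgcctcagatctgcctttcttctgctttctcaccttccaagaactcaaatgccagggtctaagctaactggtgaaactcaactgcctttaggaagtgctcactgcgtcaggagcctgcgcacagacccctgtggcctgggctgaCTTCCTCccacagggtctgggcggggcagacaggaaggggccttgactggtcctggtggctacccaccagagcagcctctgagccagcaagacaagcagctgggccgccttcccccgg
The first bases of the letters lay at -64 in Laptm5, -3 in Inpp5d, -45 in Cd53 and -68 in Cyth4, counted from the gene start.

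Extracellular matrix genes passed in both directions. Col5a3, a fibrillar collagen chain, had 314 reads with buffer, 455 with saline and 902 with STZ and a fold of 2.34. Col4a1, the basement membrane chain of vessels, had 1782, 1993 and 1098 reads, with a fold of 0.643, and Col3a1 had 83, 73 and 15 reads. Col3a1 was in the set only through its buffer and saline reads. Of 30 collagens, 1 passed as higher and 2 as lower, and the median log2 fold was -0.05. In saline against buffer 4 collagens passed as higher and 0 as lower, with a median of 0.17. Fibronectin (Fn1) had 3224, 3192 and 1429 reads (fold 0.471, ratio 0.442, interval 0.415 to 0.471). Mmp2, a gelatinase, and Timp1, a metalloprotease inhibitor, had folds of 2.49 and 1.83, while the protease Adamts8 had 399, 352 and 155 reads, which is a fold of 0.491. Sulf2, which removes sulfate from heparan sulfate outside the cell, had 3062, 3113 and 5052 reads, a fold of 1.63.

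Several genes of vessels and of the cells around them passed as lower. Cldn5, the claudin of endothelial tight junctions, had 188 reads with buffer, 154 with saline and 37 with STZ, and its fold of 0.294 was the smallest of all whole-count genes (ratio 0.196, interval 0.134 to 0.281). Of 17 endothelial genes, 7 passed as lower and 0 as higher by fold, 13 were below 0.65 by the count ratio, and the median log2 fold was -0.56. Of the 7, 6 had under 50 reads with STZ, and of the 8 genes with at least 50 reads there, 1 passed as lower. Of 13 genes of mural cells and astrocytes, 6 passed as lower, among them Pdgfra, a receptor of retinal astrocytes, with 650, 581 and 269 reads.

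Peptide genes of neurons passed on both sides. Pdyn, the precursor of the dynorphin opioid peptides, had 121 reads with buffer, 116 with saline and 23 with STZ (fold 0.421, ratio 0.19, interval 0.116 to 0.298). Pdyn was in the set only through its buffer and saline reads. Gal, the precursor of galanin, had 345, 312 and 718 reads, with a fold of 2.04. The other 10 of 12 peptide genes lay between the thresholds, and the family median was 0.24. None of 23 calcium and sodium channel genes passed. Tmem132b, a membrane protein, had 703, 789 and 278 reads, which is a fold of 0.456.

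Among 201 solute carriers, 3 passed as higher and 2 as lower, which was 2.49% against 2.63% of all whole-count genes. In saline against buffer 6 passed as higher and 1 as lower. Slc37a2, a carrier found in macrophages, had 22, 36 and 119 reads and was in the set only through its STZ reads. Slc30a10, which exports manganese from cells, had 2631 reads with buffer, 2768 with saline and 1545 with STZ and a fold of 0.593. Slc26a7, an anion exchanger, had 177, 179 and 46 reads and was in the set only through its buffer and saline reads. Slc6a13, a GABA and taurine carrier, had 12, 187 and 49 reads and passed with a fold of 1.64, but its saline value was the highest. Optc, a protein of the vitreous, showed the same high saline library, with 82, 913 and 43 reads and a fold of 0.58.

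Metabolic and regulatory enzymes were found among the well-counted lower genes. Cyp1b1, a cytochrome P450 that acts on steroids and retinoids, had 3171 reads with buffer, 2594 with saline and 1352 with STZ (fold 0.449, ratio 0.426, interval 0.399 to 0.454). Ass1, an enzyme of arginine synthesis, had 2948, 2676 and 1497 reads, a fold of 0.512. Ddit4, an inhibitor of the mTORC1 kinase, had 5072, 4767 and 2975 reads, with a fold of 0.588. Rap1gap and Sipa1l1, which both switch off Rap GTPases, had folds of 0.645 and 0.618, and the phosphatase Dusp16 had 0.62. H1f0, a linker histone, had 7444, 7846 and 4707 reads, which is a fold of 0.633. The core histone Hist1h2bk had a fold of 0.452 but only 68, 57 and 29 reads, a mean of 51.3 near the filter. Of 10 histone genes, these 2 passed as lower, and the median log2 fold was -0.20.

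Among the well-counted higher genes, Agtpbp1, a carboxypeptidase that trims glutamate chains from tubulin, had 2355 reads with buffer, 2255 with saline and 4806 with STZ (fold 2, ratio 2.04, interval 1.94 to 2.14). Its controls were close and STZ was far above both. The lysosomal proteases Ctsd and Ctsb had folds of 1.99 and 1.98. Ckap2, a protein of the mitotic spindle, had 1659, 1606 and 2757 reads, a fold of 1.64. Stat3, a transcription factor of cytokine signalling, had 1730, 1983 and 2731 reads, and its fold of 1.55 lay so near the threshold that it did not pass with TMM scaling or DESeq2 size factors, at 1.53 with both. Crabp1, which binds retinoic acid, had 2110, 2764 and 3394 reads, with saline between the other libraries. Ccng1 and Cdkn1a, cell cycle regulators controlled by p53, had folds of 3.45 and 3.24.

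Genes of photoreceptors and of progenitors passed on opposite sides. Of 38 rod and cone genes, 13 passed as higher and 0 as lower, among them Pde6a and Gngt1 of the light response. The list's median log2 fold was 0.51. Over all whole-count genes, 1.81% passed as higher and 0.82% as lower. The cone genes differed: Gnat2, Gngt2 and Pde6c had folds of 0.977, 1.09 and 1.09, Opn1sw had 1.35, and Pde6h passed at 1.71. Of 31 neurogenic progenitor genes, 10 passed as lower and 0 as higher, with a median of -0.50. The Notch ligand Dll1 had 2765 reads with buffer, 2999 with saline and 1561 with STZ. Hes6, a partner of proneural factors, had 13237, 12999 and 8578 reads, with a fold of 0.647, close to the threshold. Of 39 homeobox factors, Lhx2 and Irx5 passed as lower and Pax4 as higher, at a fold of 1.55 that was 1.51 with TMM scaling or DESeq2 size factors and then did not pass. The nuclear receptors Nr2e1, a regulator of progenitors, and Rarb, a retinoic acid receptor, were the 2 of 29 that passed, with folds of 0.604 and 0.634.

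Of 23 interferon response genes, 12 passed as higher and 0 as lower, with a median log2 fold of 0.68. Of these 12, 4 were in the set only through their STZ reads, and of the 18 genes that reached a mean of 50 over buffer and saline, 8 passed. Tap1, the peptide transporter of antigen presentation, had 30, 39 and 195 reads and was in the set only through STZ. Of 20 immediate early genes, 5 passed as higher and 0 as lower, with a median of 0.16. Egr1, a zinc finger factor induced by activity and growth signals, had 32, 38 and 168 reads and was in the set only through STZ. Of the 19 immediate early genes that reached a mean of 50 over buffer and saline, 4 passed. Both Y-linked genes, Eif2s3y and Ddx3 (Ddx3y in RefSeq), passed as higher. Eif2s3y had 500 reads with buffer, 1927 with saline and 1529 with STZ, so the buffer library was the one that stood apart. The sex of the pups was not given in the sources used here, and its part in other differences from buffer was not tested.

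**Figure D4:**
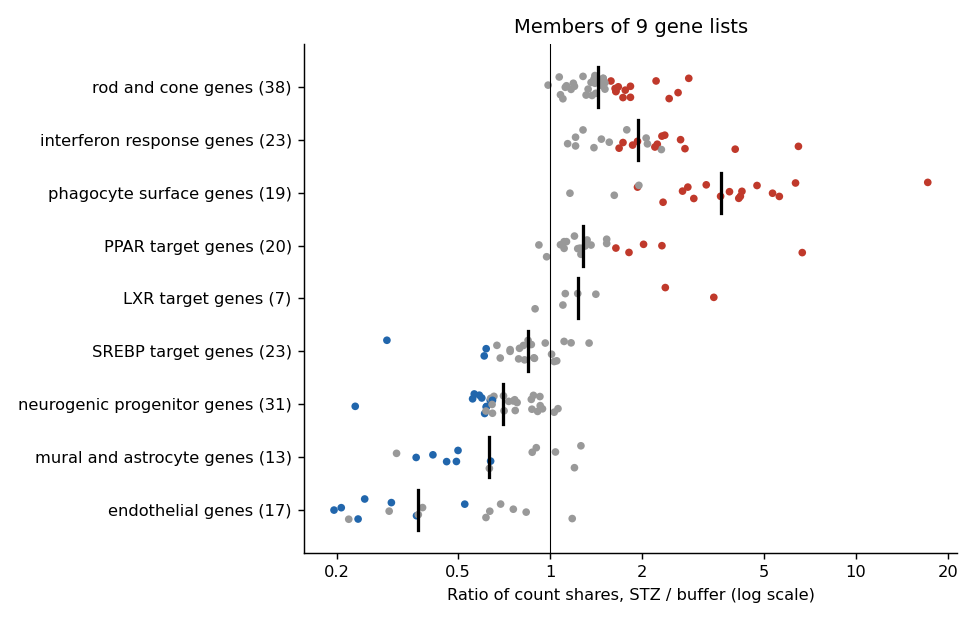
Each point is 1 whole-count gene of a list, at its ratio of count shares in STZ against buffer (log axis). Red genes passed as higher by fold, blue as lower, grey lay between, and the black bar is the list's median; all 19 phagocyte genes lie above 1, and 16 of 17 endothelial genes lie below 1.

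The larger part of cell machinery did not pass. Of 48 families that were mostly defined by gene symbol, 17 had no member past either threshold, and their 640 members lay between -0.62 and 0.53 on the log2 scale with a median of -0.01. These included 86 splicing factors, 85 genes of RNA polymerase and Mediator, 68 of the mitochondrial ribosome, 61 chromatin modifiers and 35 kinesins. Genes with many reads seldom passed: 0.319% as higher and 0.501% as lower in the group with the highest counts. Over all whole-count genes the shares were 1.81% and 0.82%. Whether the 17 families passed less often than other genes of like read count was not tested. The 19 V-ATPase genes, which acidify lysosomes, had a median log2 fold of 0.23 with none past the threshold. Of 41 proteasome genes, Psme2, a subunit of the immune-induced activator, was the only one that passed. Of 250 zinc finger genes, Zfp691 was the only one. In 10 families members passed in both directions, as with the annexin Anxa3 (fold 3.06) against S100b (0.641). S100b had 70, 87 and 35 reads and was in the set only through its buffer and saline reads. The families covered 52 of the 199 higher and 23 of the 90 lower genes.

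**Figure D5:**
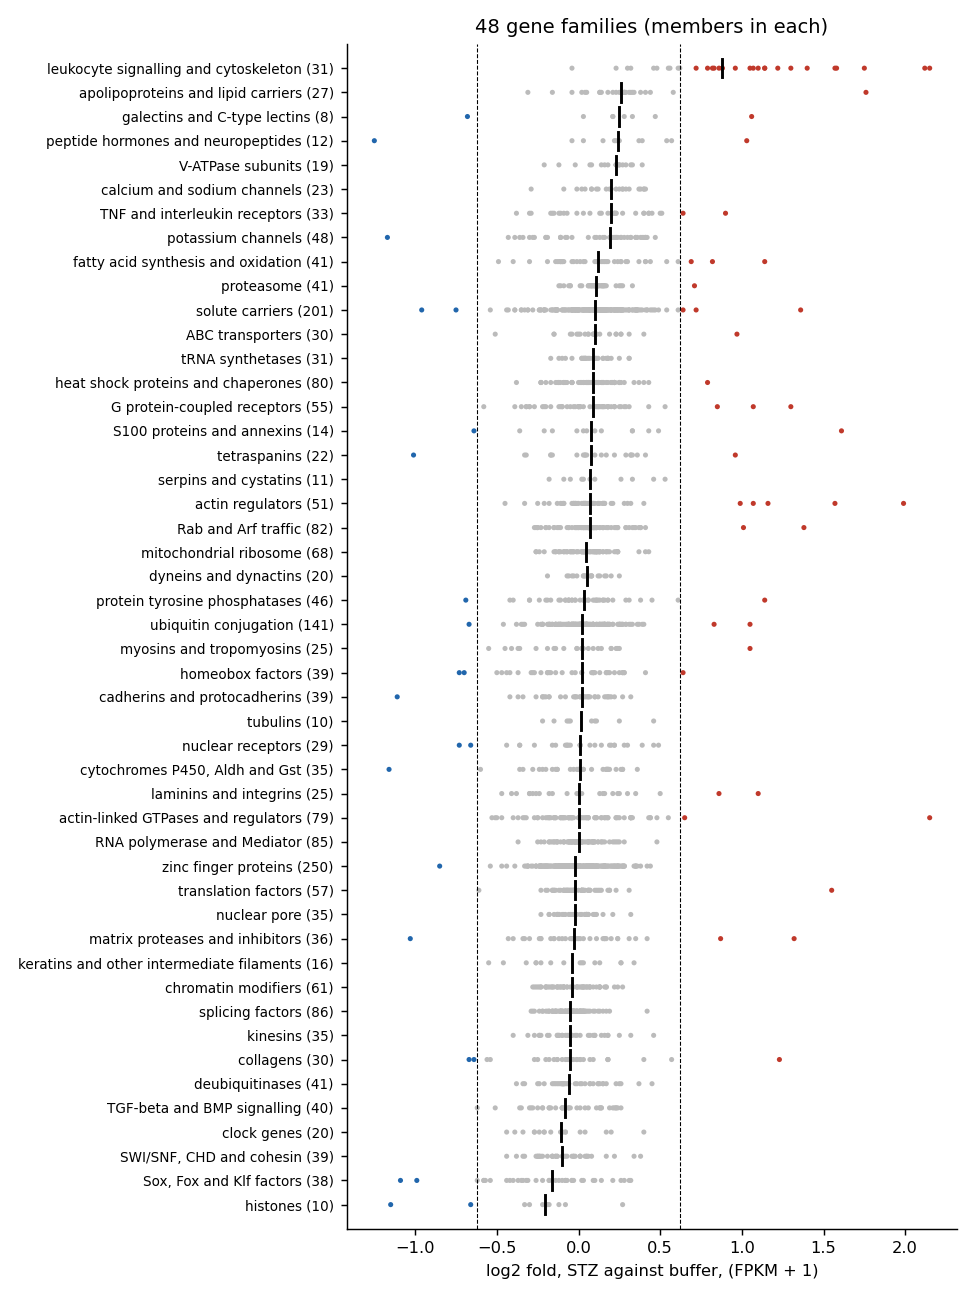
Each point is 1 whole-count gene placed by its log2 fold in STZ against buffer, in 48 families ordered by their median (black bar), with the number of members in brackets. The dashed lines mark the thresholds 1.54 and 0.65; the leukocyte family has 21 of 31 members to the right of the upper line, and 17 families have no point past either line.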

How the data were processed

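RNA of P4 rat retina was sequenced in 3 libraries, 1 for each injection. Per the methods and the labels, the authors prepared TruSeq libraries, sequenced them on an Illumina HiSeq instrument, checked reads with FastQC and mapped them with TopHat2, discarding reads with several locations. The build rn6 is named in the submitters' processing notes; tool versions and the annotation are not given in the sources used here. The authors deposited for each gene an FPKM, a TPM and an estimated count. FPKM gave the fold, with a pseudocount of 1. The estimated counts gave the filter and the ratios; 12.9% to 13.2% of the values per library were fractional as deposited, and genes with such values were left out. TPM was not used.

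Genes and lists were chosen with earlier results of these data known. Named genes were the 25 largest and 25 smallest folds, the 15 best counted on each side, up to 4 past the threshold per family and the markers; members of lists written after the values were seen, and the genes Laptm5, Inpp5d, Cyth4, Arpc1b and Optc, were named after their values were seen. Of the 10976 genes, 10894 matched RefSeq by gene identifier. Transcript length was derived from count, FPKM and library total. One symbol in the table had been turned into a date by a spreadsheet. Values of some single genes that the naming rule covers are not reported here. Calculations were tested on simulated data.

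Python 3.11.15 with numpy 2.4.6, pandas 2.3.3, scipy 1.17.1 and matplotlib 3.10.9 was used. The scaling factors came from edgeR 4.0.16 and DESeq2 1.42.0 in R 4.3.3; no count model was fitted, since there are no replicates. The other settings tried were 0.1 as the pseudocount, 2 and 0.5 as thresholds, a mean of at least 200 counts, no filter, fractional counts kept, CPM from the counts, TMM and DESeq2 scaling, protein-coding genes only and an interval that left out 1. The count ratio with the same thresholds, and the counts without genes that reached the filter only through the library where they are high, were added after the data were seen.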

Additional observations from a re-analysis of the deposited data

How the results depend on the processing

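The number of genes past the thresholds was 289. It was 151 with a mean of at least 200 counts, 461 with a pseudocount of 0.1, 102 with thresholds of 2 and 0.5, and 499 by the count ratio. The 199 higher genes became 92 with a mean of at least 200 counts, 312 with no filter, 299 with a pseudocount of 0.1, 86 with thresholds of 2 and 0.5, and 319 by the count ratio. The 90 lower genes became 156 with DESeq2 size factors, 159 with TMM scaling, 59 with a mean of at least 200 counts, 162 with a pseudocount of 0.1, 16 with thresholds of 2 and 0.5, and 180 by the count ratio. Families with no member past either threshold went from 17 to 27 with a mean of at least 200 counts, where fewer genes are tested. For the other moves the cause was not tested.

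The median log2 fold of 0.026 became -0.008 with TMM scaling and -0.005 with DESeq2 size factors. Of 131 named genes, 128 stayed past the threshold on the same side with the pseudocount of 0.1, with CPM and with both scalings, and 0 reversed. The others were Bcl2l11, Pax4 and Stat3. No paired analysis was possible because each condition has 1 library, whether or not libraries share animals, and no replicate could be left out for the same reason. Depth limits the weakly counted genes most: 93 of the higher genes had under 100 reads with buffer. The spread between animals is unknown.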

Other observations

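A few further values were chosen after they were seen. Mgmt, which removes alkyl groups from guanine, had 28 reads with buffer, 44 with saline and 102 with STZ (fold 2.82). Mgmt was in the set only through its STZ reads. Mest, an imprinted hydrolase, had 709, 763 and 1560 reads (fold 2.16), and Dlk1, an imprinted Notch-like ligand, had 97, 79 and 22 (fold 0.408). Dlk1 was in the set only through its buffer and saline reads. The 2 imprinted genes thus lay on opposite sides. Igf1, a growth factor, had 720, 689 and 1224 reads (fold 1.69). Gas6, a member of the phagocyte surface list and a ligand that bridges dying cells to phagocytes, had 278, 363 and 538 reads (fold 1.79).

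Ligand and receptor of the apelin system, both on the endothelial list, passed as lower: Apln had 104, 63 and 38 reads (fold 0.602) and its receptor Aplnr 109, 89 and 33 (fold 0.588). Both were in the set only through their buffer and saline reads. For Apln the count ratio of saline to buffer was 0.606 (interval 0.436 to 0.837), so the controls also differed. Epas1, a hypoxia-inducible factor of the same list, had 487, 494 and 256 reads (fold 0.573), and Egln3, a hydroxylase of such factors, had 322, 221 and 188 (fold 0.646). For Egln3 the saline library lay between buffer and STZ and nearer to STZ in reads. Slc2a1, a glucose carrier also on that list, lay between the thresholds with 10438, 9378 and 7196 reads (fold 0.69), and Vegfa had 8902, 8772 and 8346 (fold 0.955). Notum, an enzyme that inactivates Wnt ligands, had 7, 185 and 2 reads, and entered the set only through its saline reads.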
